A study of Mus musculus with 4 samples.

Results

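Cholesterol synthesis, its control by sterol sensing, and sterol transport and efflux were followed through 30 genes in cultured mouse bone marrow mesenchymal stem/progenitor cells, the fibroblast-like stromal cells that grow out of marrow. The genes were taken by symbol from a list of the pathway, and all 30 had a row among the 23997 symbols of the deposited expression table. RNA was sequenced from 2 Asxl1-/- libraries and 2 wild-type (WT) libraries, all on a C57BL/6 background and all at passages 5 to 10 in MesenCult medium with 20% supplement, replated at 80 to 90% confluency. The title of the series asks what the loss of Asxl1, a chromatin regulator that works with the BAP1 deubiquitinase and the Polycomb system, does to self-renewal and cell fate. How the allele was made, the age of the animals, and whether separate animals gave the libraries of each genotype are not stated in the labels, so p-values measure the spread between these libraries, which may be technical.

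Cells build cholesterol from acetyl-CoA through mevalonate, isoprenoid diphosphates, squalene and lanosterol. The transcription factor SREBP2, encoded by Srebf2, drives nearly all genes of this route. When membrane sterol is low, the escort protein SCAP carries SREBP2 to the Golgi for cleavage; when sterol is high, the INSIG proteins hold SCAP in the endoplasmic reticulum. In the other direction, oxysterols that form when sterol is plentiful activate the nuclear receptors LXR alpha and LXR beta, which induce the exporters ABCA1 and ABCG1.

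Values are FPKM, the deposited sequenced fragments scaled to transcript length and library size, so levels can be compared between genes; the number of reads behind them is unknown. Asxl1 stood at 0.273 and 0.312 FPKM in the Asxl1-/- libraries, against 14.6 and 11.2 FPKM in the WT libraries, so the levels follow the genotype labels. The 13 stromal markers summed to 5887 and 5224 FPKM in Asxl1-/- replicates 1 and 2, against 4623 and 5977 FPKM in WT replicates 1 and 2. The collagen genes Col1a1 and Col1a2 made up much of that sum, and single markers stood apart in single libraries. Pdgfra was at 58.8 and 63.0 FPKM in Asxl1-/- cells, against 80.9 and 4.78 FPKM in WT, so it was low in WT replicate 2. Dcn was at 28.6 and 620 FPKM in Asxl1-/- cells, against 66.6 and 61.8 FPKM in WT, and Ly6a at 1059 and 184 FPKM, against 70.0 and 276 FPKM. The part of these differences in the enzyme levels was not tested. The libraries differed in macrophage markers irrespective of genotype. The 17 markers summed to 81.1 and 388 FPKM in Asxl1-/- replicates 1 and 2 and to 7.62 and 585 FPKM in WT replicates 1 and 2, with 1 and 5 of them at 0 in Asxl1-/- replicate 1 and WT replicate 1 and 0 of them at 0 in the other libraries. The 2 most abundant were the lysozyme gene Lyz2, at 2.36 and 293 against 2.85 and 400 FPKM, and the Fc receptor chain Fcer1g, at 72.2 and 7.38 FPKM against 13.7 FPKM in WT replicate 2 and a value listed at 0 in WT replicate 1. Of 10 adipocyte markers, 6 to 8 were at 0 in each library, Adipoq reached at most 0.0384 FPKM, and the list's level lay in the fat and macrophage gene Fabp4, at 150 and 5.16 FPKM in Asxl1-/- cells, against 146 and 31.0 FPKM in WT, and in the lipid droplet gene Plin4, at 2.57 and 3.02 FPKM, against 5.40 and 0.832 FPKM. Of 7 endothelial markers, 1 passed 1 FPKM anywhere, Cdh5 at 7.11 FPKM in Asxl1-/- replicate 2.

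RefSeq promoters, from 250 bases before to 50 bases after the start of transcription on build GRCm38.p6 (the sequence of mm10), were in the table for 24 of the 30 genes, and for 23 of these the start lay within 100 bases of the gene's row. They are shown for the enzyme genes Hmgcs1, Mvd, Idi1 and Sc5d and for the control genes Srebf2 and Insig1, whose values are compared below. Capitals mark the sterol regulatory element searched as TCACNCCAC, which SREBP binds, and the CCAAT box, which the SREBP partner NF-Y binds and which reads ATTGG on the other strand. The windows lie at chr13:119690101-119690400 (plus strand) for Hmgcs1, chr8:122443373-122443672 (minus strand) for Mvd, chr13:8885356-8885655 (plus strand) for Idi1, chr9:42264251-42264550 (minus strand) for Sc5d, chr15:82147019-82147318 (plus strand) for Srebf2 and chr5:28071162-28071461 (plus strand) for Insig1.
Hmgcs1: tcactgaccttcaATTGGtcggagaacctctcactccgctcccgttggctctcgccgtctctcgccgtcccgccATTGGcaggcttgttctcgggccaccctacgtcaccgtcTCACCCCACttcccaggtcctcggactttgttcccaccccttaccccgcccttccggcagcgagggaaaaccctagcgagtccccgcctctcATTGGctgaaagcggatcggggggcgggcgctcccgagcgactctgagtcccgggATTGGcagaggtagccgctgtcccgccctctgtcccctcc
Mvd: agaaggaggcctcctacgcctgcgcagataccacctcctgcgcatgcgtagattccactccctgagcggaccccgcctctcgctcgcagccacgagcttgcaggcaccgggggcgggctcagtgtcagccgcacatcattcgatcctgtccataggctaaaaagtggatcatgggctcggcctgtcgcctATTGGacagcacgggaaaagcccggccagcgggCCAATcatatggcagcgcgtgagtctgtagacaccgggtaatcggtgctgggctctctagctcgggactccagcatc
Idi1: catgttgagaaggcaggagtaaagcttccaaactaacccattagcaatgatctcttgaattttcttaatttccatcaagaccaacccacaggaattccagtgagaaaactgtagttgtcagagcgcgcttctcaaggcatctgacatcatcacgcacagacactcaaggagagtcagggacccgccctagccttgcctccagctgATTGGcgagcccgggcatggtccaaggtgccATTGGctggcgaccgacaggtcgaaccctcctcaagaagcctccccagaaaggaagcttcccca
Sc5d: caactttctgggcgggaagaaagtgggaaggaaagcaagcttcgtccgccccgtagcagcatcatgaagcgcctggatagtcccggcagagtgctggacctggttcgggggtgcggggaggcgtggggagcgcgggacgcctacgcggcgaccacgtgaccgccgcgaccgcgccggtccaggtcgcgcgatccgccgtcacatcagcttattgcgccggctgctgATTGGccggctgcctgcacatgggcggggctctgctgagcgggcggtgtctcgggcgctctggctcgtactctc
Srebf2: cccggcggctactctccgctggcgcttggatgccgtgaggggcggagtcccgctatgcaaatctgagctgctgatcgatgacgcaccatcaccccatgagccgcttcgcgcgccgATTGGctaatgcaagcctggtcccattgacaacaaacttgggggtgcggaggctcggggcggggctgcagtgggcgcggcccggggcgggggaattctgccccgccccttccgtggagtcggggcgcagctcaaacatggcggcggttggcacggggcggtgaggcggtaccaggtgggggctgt
Insig1: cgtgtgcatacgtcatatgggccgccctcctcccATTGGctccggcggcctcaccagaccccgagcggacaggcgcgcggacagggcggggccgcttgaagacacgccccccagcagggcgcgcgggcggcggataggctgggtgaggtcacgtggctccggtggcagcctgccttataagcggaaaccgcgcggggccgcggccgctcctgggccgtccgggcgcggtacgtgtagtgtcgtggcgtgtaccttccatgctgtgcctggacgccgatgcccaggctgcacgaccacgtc

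On both strands, the CCAAT box was in 17 of the 24 promoters, 13 of them among the 16 enzyme promoters, against 37.8% of the promoters of all genes tested for expression. Hmgcs1 held it 4 times, Mvd and Idi1 2 times each, and Sc5d, Srebf2 and Insig1 1 time each. The sterol regulatory element in these exact letters was in 1 of 24, that of Hmgcs1, at -137 to -129 relative to the start, against 1.16% of promoters of tested genes. Allowing 1 other letter, a choice made after the first count was seen, it was in 9 of 24, among them Srebf2 and Insig1, against 25.5%. The GC box GGGCGG, a site of Sp1, was in 19 of 24, against 64% of promoters of tested genes. A match is a description of the letters in these windows, and no match says only that these letters are not there.

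The enzymes of the early, mevalonate part of the route had lower group means in Asxl1-/- cells, but the size of the difference depended on single libraries, WT replicate 1 among them. For some of these enzymes the sign did too: without WT replicate 1 the log2 fold change was 0.25 for Hmgcs1 and 0.10 for Idi1. Of the 19 synthesis genes, 15 were highest in WT replicate 1, where 37.4% of all 11481 genes tested were, and 0 were highest in WT replicate 2, where 20.7% of them were. Summed over the 19 genes, the level was 494 and 630 FPKM in Asxl1-/- replicates 1 and 2, against 952 and 539 FPKM in WT replicates 1 and 2, so WT replicate 2 lay between the Asxl1-/- libraries and WT replicate 1 stood above all of them. Over all genes tested, both Asxl1-/- libraries were below WT replicate 2 for 37.9% and above it for 29.9%. For 9 of the 19 synthesis genes WT replicate 2 itself fell between the Asxl1-/- libraries. The plot of enzyme levels in pathway order shows this for each step.

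**Figure D1:**
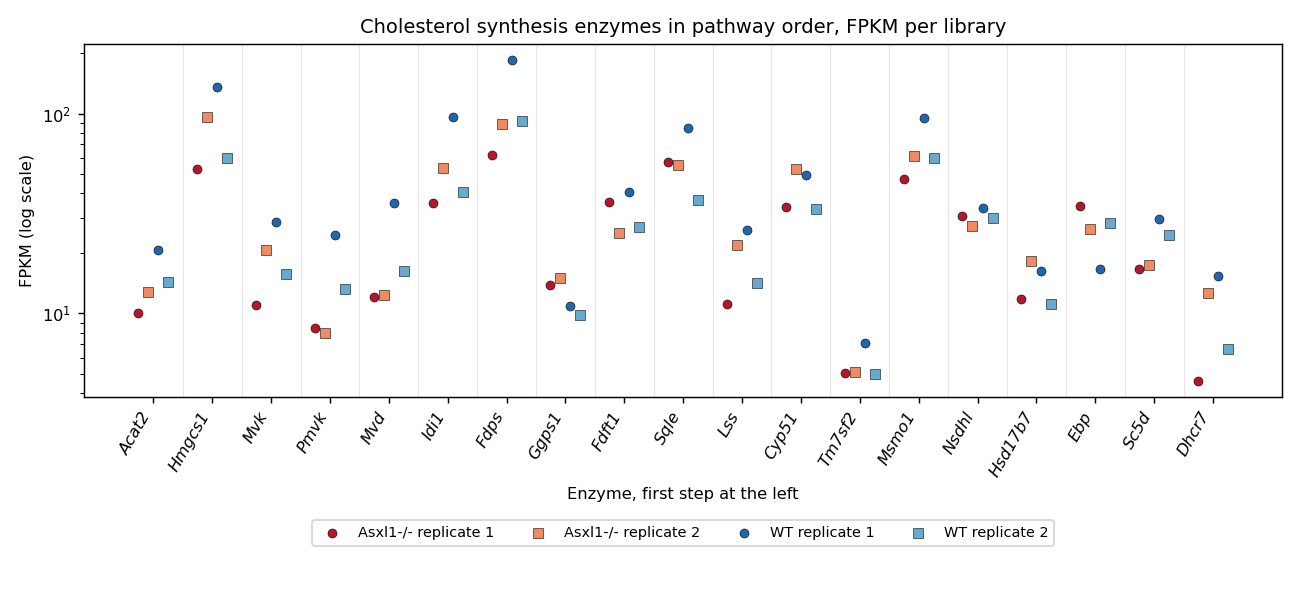
FPKM (log axis) of the 19 cholesterol synthesis genes in each of the 4 libraries, in pathway order from left to right; each point is a library. WT replicate 1 (dark blue) is the highest point for 15 genes, while WT replicate 2 (light blue) lies among the Asxl1-/- libraries (red and orange) for many.

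Acetoacetyl-CoA thiolase, encoded by Acat2, makes the first condensation, and Acat2 stood at 10.0 and 12.7 FPKM in Asxl1-/- replicates 1 and 2, against 20.7 and 14.3 FPKM in WT replicates 1 and 2. Hmgcs1, whose product adds the next acetyl unit to form HMG-CoA, stood at 53.0 and 95.7 FPKM in Asxl1-/- cells, against 136 and 59.6 FPKM in WT. The groups did not overlap for Acat2, and for Hmgcs1 Asxl1-/- replicate 2 lay well above WT replicate 2.

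The kinases and the decarboxylase that turn mevalonate into isopentenyl diphosphate came next. Mevalonate kinase, Mvk, stood at 11.1 and 20.7 FPKM in Asxl1-/- cells, against 28.8 and 15.7 FPKM in WT, with overlap. Phosphomevalonate kinase, Pmvk (chr3:89459118-89469009), had close values of 8.48 and 7.94 FPKM in Asxl1-/- cells, against 24.8 and 13.3 FPKM in WT. The groups did not overlap for Pmvk, nor for Mvd (chr8:122433596-122443422), the decarboxylase, at 12.1 and 12.4 FPKM against 35.8 and 16.4 FPKM in WT. The log2 fold change of FPKM + 1 was -1.06 for Pmvk (95% interval -2.00 to -0.13, standard error 0.35) and -0.93 for Mvd (-2.03 to 0.17, standard error 0.42), with limma adjusted p of 0.601 and 0.632. Without WT replicate 1 they were -0.64 and -0.39. Of the 29 members tested, Pmvk had the fold change farthest from 0.

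Isopentenyl diphosphate isomerase, Idi1, stood at 35.8 and 53.3 FPKM in Asxl1-/- cells, against 95.8 and 40.6 FPKM in WT. Farnesyl diphosphate synthase, Fdps (chr3:89093588-89101967), the most abundant of the enzymes, stood at 61.7 and 88.4 FPKM in Asxl1-/- cells, against 185 and 91.9 FPKM in WT. The Asxl1-/- libraries were below both WT libraries for Fdps, but replicate 2 by little, and they overlapped with WT for Idi1. Over the 7 genes from Acat2 to Fdps all 7 log2 fold changes were below 0, with a median of -0.57, where 56.8% of all genes tested were below 0 and their median was -0.07. Without WT replicate 1, 5 of the 7 were below 0, with a median of -0.31, where 53.5% of all genes tested were below 0. Without WT replicate 2 all 7 were, with a median of -1.12, where 57.4% of all genes tested were. Both Asxl1-/- libraries were below both WT libraries for 4 of the 7 (Acat2, Pmvk, Mvd and Fdps), where this held for 25.2% of all genes tested. Over all 19 synthesis genes, with Sc5d as the further one, it held for 5, a share near that of all genes. The 7 genes were set apart from the 19 after the data were seen, so their counts beside the shares of all genes are a description and not a test.

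Pmvk and Fdps lie 357.2 kilobases apart on chromosome 3, whose 559 tested genes differed as a whole between the libraries. Their median log2 deviation from the mean of the 4 libraries was -0.44 and -0.05 in Asxl1-/- replicates 1 and 2, against 0.42 and 0.08 in WT replicates 1 and 2. With each library's chromosome medians removed, an alternative chosen after the data were seen, the log2 fold change was -0.57 for Pmvk and -0.32 for Fdps, and -0.69 for Mvd. The part of the chromosome's difference in the levels of Pmvk and Fdps was not tested. Other chromosomes differed between the libraries too. In Asxl1-/- replicates 1 and 2, then WT replicates 1 and 2, the medians were -0.12, 0.02, 0.28 and -0.17 for chromosome 13 (Hmgcs1, Idi1). They were -0.10, -0.0017, 0.22 and -0.17 for chromosome 5 (Mvk, Insig1). On chromosome 10 (Lss) WT replicate 1 was low instead, at -0.29. With chromosome medians removed the median over the genes from Acat2 to Fdps was -0.40, against -0.57.

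Geranylgeranyl diphosphate synthase, Ggps1, sits on a branch that feeds protein prenylation and leaves the sterol route. Ggps1 stood at 13.9 and 15.1 FPKM in Asxl1-/- cells, against 10.9 and 9.77 FPKM in WT, and was the only synthesis gene with both Asxl1-/- libraries above both WT libraries, which held for 15.6% of all genes tested. Its log2 fold change was 0.45 (95% interval -0.14 to 1.04; limma adjusted p = 0.649), and it stayed between 0.38 and 0.52 with any 1 library left out. It thus ran opposite to Fdps, the step before it, although the difference did not pass the test.

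The squalene steps differed little in their group means. Squalene synthase, Fdft1, stood at 36.0 and 25.2 FPKM in Asxl1-/- cells, against 40.4 and 27.2 FPKM in WT. Squalene epoxidase, Sqle, a rate-limiting oxygenase, stood at 57.3 and 55.0 FPKM in Asxl1-/-, between the WT values of 84.2 and 37.0 FPKM. Lanosterol synthase, Lss, stood at 11.1 and 21.9 FPKM in Asxl1-/- cells, against 26.0 and 14.2 FPKM in WT. All 3 were highest in WT replicate 1, the groups overlapped for each, and their log2 fold changes ran from -0.28 to 0.01, with a median of -0.13, which was 0.14 without WT replicate 1 and -0.58 without WT replicate 2.

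After lanosterol, Sc5d (chr9:42254177-42264300), the sterol desaturase, stood apart from its neighbours. Sc5d stood at 16.6 and 17.5 FPKM in Asxl1-/- cells, against 29.8 and 24.8 FPKM in WT, with no overlap and close values within each group. Its log2 fold change was -0.64 (95% interval -1.26 to -0.03, standard error 0.23; limma adjusted p = 0.617), and it ran from -0.77 to -0.51 when 1 library was left out, the least dependent on single libraries of the enzymes that stood lower without overlap. The 634 tested genes of chromosome 9, where Sc5d lies, had median deviations of 0.04 and -0.11 in Asxl1-/-, against -0.25 and 0.30 in WT replicates 1 and 2. With chromosome medians removed the log2 fold change of Sc5d was -0.58, with a wider standard error of 0.33, against 0.23 as first fitted. The part of the chromosome's shift in the level of Sc5d was not tested.

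The other genes after lanosterol overlapped between the groups. The demethylase Cyp51 stood at 33.9 and 53.0 FPKM in Asxl1-/- and at 49.5 and 33.4 FPKM in WT, and the reductase Tm7sf2, the lowest of the enzymes, at 5.06 and 5.08 FPKM in Asxl1-/- and at 7.15 and 4.99 FPKM in WT. The methyl sterol oxidase Msmo1 stood at 47.0 and 61.3 FPKM in Asxl1-/- and at 95.3 and 59.7 FPKM in WT. Nsdhl, a decarboxylating dehydrogenase, was nearly level, at 30.6 and 27.3 FPKM in Asxl1-/- and at 33.7 and 30.03 FPKM in WT. The ketoreductase gene Hsd17b7 stood at 11.8 and 18.3 FPKM in Asxl1-/- cells, against 16.3 and 11.1 FPKM in WT, and Dhcr7, which encodes the reductase that completes cholesterol, at 4.61 and 12.7 FPKM, against 15.4 and 6.66 FPKM. Both were higher in Asxl1-/- replicate 2 and in WT replicate 1 than in the other library of the same genotype. The isomerase gene Ebp was the only synthesis gene with its lowest value in WT replicate 1. It stood at 34.5 and 26.4 FPKM in Asxl1-/- cells, against 16.6 and 28.4 FPKM in WT. Over the 8 genes after lanosterol 5 log2 fold changes were below 0, with a median of -0.17, where 56.8% of all genes tested were below 0. Without WT replicate 1 the median of the 8 was 0.05 and 3 were below 0, where 53.5% of all genes tested were.

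No synthesis gene passed the threshold of an adjusted p of 0.05 in limma, and 0.0261% of all 11481 genes did. Asxl1, the deleted gene, also missed this threshold (limma adjusted p = 0.215), although its fitted log2 difference was -3.41. The authors' deposited table did call Asxl1 (q = 0.00836). Missing the limma threshold with 2 libraries per genotype therefore does not show that a gene was unchanged. At an unadjusted p under 0.05, 2 of 19 were lower, Pmvk and Sc5d, where 5.41% of all genes tested were, and 0 were higher, where 2.51% were. Of the 29 members tested in the authors' deposited table, 0 were significant, against 0.939% of its tested genes, and 0 had a p under 0.05. In the authors' deposited table Pmvk had a log2 fold change of -1.09 (q = 0.826) and Mvd of -0.96 (q = 0.812), and Insig1 was the 1 member whose sign differed from that of limma.

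The median log2 fold change of the 19 synthesis genes was -0.33, with 14 below 0, where 56.8% of all genes tested were. Without WT replicate 1 the median was 0.08 and 8 of 19 were below 0, where 53.5% of all genes tested were; without WT replicate 2 it was -0.77 and 17 of 19 were below 0, where 57.4% of all genes tested were. Both Asxl1-/- libraries were below WT replicate 1 for 15 of the 19 genes, where this held for 45.3% of all genes tested. Both were below WT replicate 2 for 5 of 19, where this held for 37.9%, and both were above it for 5 of 19, where this held for 29.9%. For 15 of the 19 genes the WT libraries differed from each other by more than the group means did on the log2 scale, which was so for 57.7% of all genes tested.

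**Figure D2:**
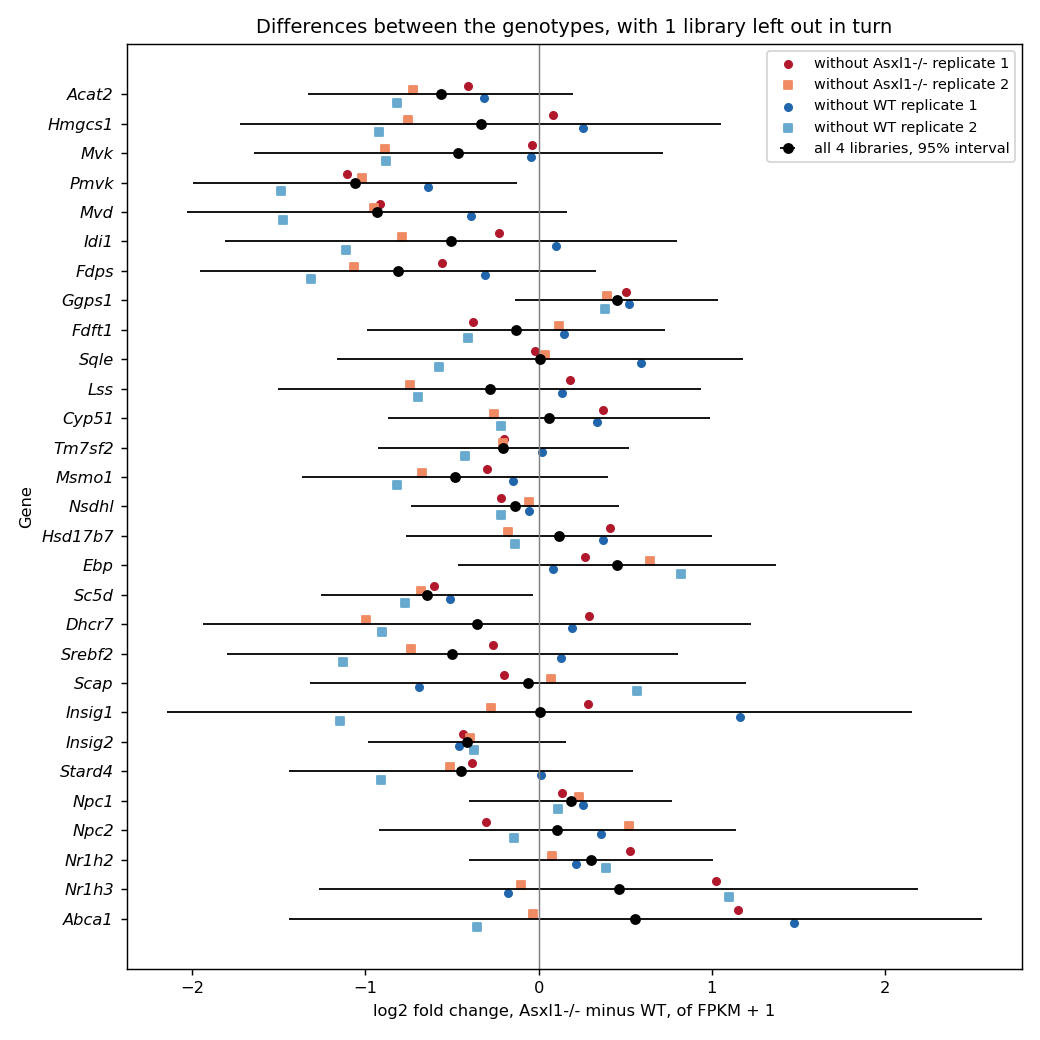
Log2 fold change of FPKM + 1, Asxl1-/- minus WT, of the 29 members that were tested, in the order enzymes, SREBP control, transport and efflux; black points and lines are the fit to all 4 libraries with its 95% interval, and coloured points the fits without 1 library. The intervals of Pmvk and Sc5d alone leave out 0, and most enzymes move to the right without WT replicate 1 (dark blue) and to the left without WT replicate 2 (light blue).

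The sensing genes differed from each other in how the libraries were ordered. Srebf2 (chr15:82147269-82204960), the driver of the route, stood at 27.8 and 39.0 FPKM in Asxl1-/- replicates 1 and 2, against 73.2 and 30.03 FPKM in WT replicates 1 and 2. Insig1 (chr5:28071412-28078662), which is both a brake on SREBP and one of its best known targets, stood at 24.5 and 36.6 FPKM in Asxl1-/-, between the WT values of 67.8 and 12.8 FPKM, the widest spread within WT of the 4 sensing genes. WT replicate 1 thus had the highest and WT replicate 2 the lowest Insig1 level. In both genes WT replicate 1 was highest and Asxl1-/- replicate 2 next. The same held for 7 of the 19 synthesis genes (Hmgcs1, Mvk, Idi1, Lss, Tm7sf2, Msmo1 and Dhcr7), for Tm7sf2 by a small margin, and for 11.3% of all genes tested, while the other synthesis genes had another order.

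Insig2, the partner of Insig1 that is not a classical SREBP target, behaved otherwise: it stood at 19.9 and 19.3 FPKM in Asxl1-/- cells, against 25.7 and 27.3 FPKM in WT. Its groups did not overlap, its log2 fold change was -0.42 (95% interval -0.99 to 0.16; limma adjusted p = 0.669), and the value ran from -0.46 to -0.37 with 1 library left out. The ratio of Insig1 to Insig2 within a library, which no scaling between libraries can change, was 1.23 and 1.89 in Asxl1-/- replicates 1 and 2, against 2.63 and 0.470 in WT replicates 1 and 2. The Asxl1-/- ratios lay between those of the WT libraries.

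Scap, the escort of SREBP, had the opposite order in WT, at 22.9 and 18.8 FPKM in Asxl1-/- cells, against 13.7 and 34.1 FPKM in WT. Scap lies on chromosome 9, whose tested genes had median deviations of -0.25 and 0.30 in WT replicates 1 and 2. Sc5d, on the same chromosome, stood at 29.8 and 24.8 FPKM in these libraries. The part of the chromosome's shift in the level of Scap was not tested. The log2 fold change of Scap was near 0 in these fits with 4 libraries: -0.06 as fitted, 0.05 after median ratio scaling, and 0.0041 with chromosome medians removed. Of the 4 sensing genes 0 passed limma's adjusted threshold or an unadjusted p of 0.05, and their median log2 fold change was -0.24. Over all genes tested 0.0261% passed the first, 5.41% were lower and 2.51% higher at the second, and the median was -0.07.

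**Figure D3:**
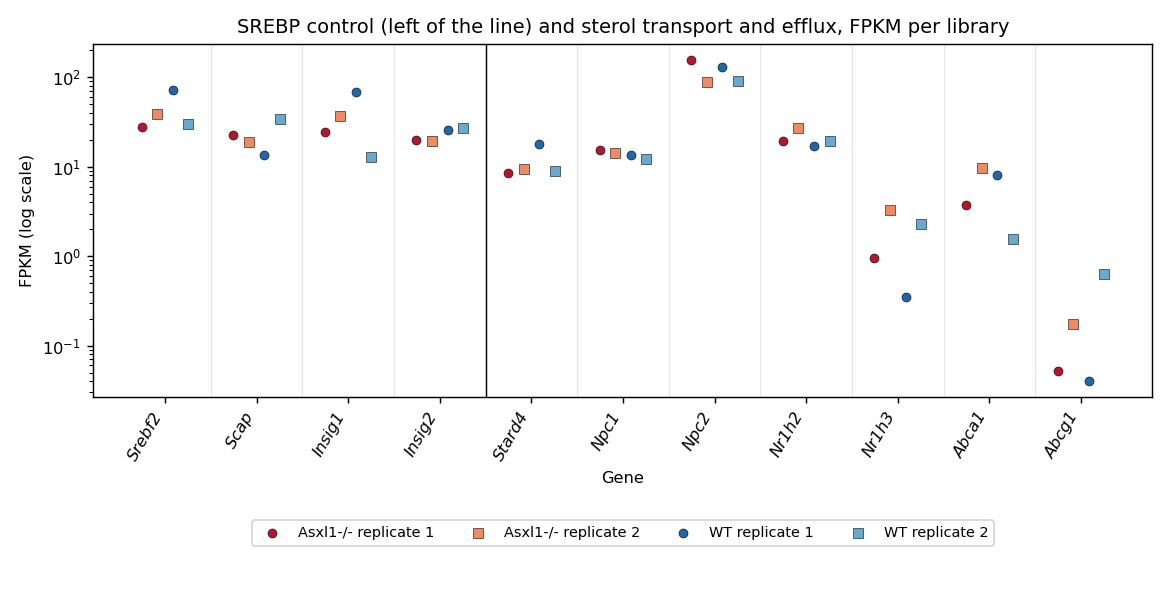
FPKM (log axis) of the 4 SREBP control genes (left of the line) and the 7 sterol transport and efflux genes in each of the 4 libraries; each point is a library. Insig1 spans 12.8 to 67.8 FPKM within WT, Insig2 is lower in both Asxl1-/- libraries, and Nr1h3 and Abcg1 are highest in the replicates 2 of both genotypes.

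Sterol handling inside the cell showed small differences. Stard4, a carrier of cholesterol between membranes that SREBP also induces, stood at 8.55 and 9.44 FPKM in Asxl1-/- cells, against 17.8 and 8.88 FPKM in WT, so WT replicate 1 alone was high. Npc1 and Npc2 encode the lysosomal proteins that release cholesterol taken up with lipoproteins. Npc1 stood at 15.4 and 14.3 FPKM in Asxl1-/- cells, against 13.7 and 12.2 FPKM in WT, which did not overlap but differed by a log2 fold change of 0.18 (95% interval -0.40 to 0.77; limma adjusted p = 0.855). Npc2, the most abundant of the 30 genes, stood at 156 and 87.8 FPKM in Asxl1-/- cells, against 130 and 91.1 FPKM in WT, and varied more within a genotype than between them.

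The LXR arm was read from its receptors and exporters apart from the SREBP genes. LXR beta, encoded by Nr1h2, was evenly expressed, at 19.5 and 27.0 FPKM in Asxl1-/- cells, against 17.3 and 19.6 FPKM in WT. LXR alpha, encoded by Nr1h3, was low, at 0.958 and 3.26 FPKM in Asxl1-/- replicates 1 and 2, against 0.349 and 2.26 FPKM in WT replicates 1 and 2. In every library Nr1h2 exceeded Nr1h3, by 20.4 and 8.27 times in Asxl1-/-, against 49.5 and 8.69 times in WT. Nr1h3, which macrophages express strongly, was higher in the replicates 2 of both genotypes, the libraries in which the macrophage markers Lyz2, Cd68 and Csf1r were also higher. Cd68 stood at 0.908 and 12.1 FPKM in Asxl1-/- cells, against 2.00 and 21.4 FPKM in WT. Fcer1g of the same list went the other way in Asxl1-/- cells, at 72.2 and 7.38 FPKM. Over the 14 tested macrophage markers the median log2 deviation was -1.51 and 1.05 in Asxl1-/-, against -1.67 and 1.93 in WT. The part of macrophage RNA in the level of Nr1h3 was not tested, and in bulk RNA more cells of a type and more RNA per cell cannot be told apart.

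Abca1, the exporter that loads cholesterol onto apolipoprotein, stood at 3.74 and 9.75 FPKM in Asxl1-/- replicates 1 and 2, against 8.15 and 1.57 FPKM in WT replicates 1 and 2. WT replicate 2, the library with the highest macrophage marker sum, had the lowest Abca1. Abcg1, which exports cholesterol to mature lipoprotein particles, was low, at 0.0525 and 0.177 FPKM in Asxl1-/- cells, against 0.0405 and 0.631 FPKM in WT, and was the only member under the mean of 1 FPKM needed for the test. Abcg1 was highest in WT replicate 2 and next in Asxl1-/- replicate 2, the order of the macrophage marker sum, with all values under 1 FPKM. The part of macrophage RNA in the levels of Abca1 and Abcg1 was not tested. The log2 fold change was 0.56 for Abca1 (95% interval -1.44 to 2.56), 0.46 for Nr1h3 (-1.27 to 2.19) and 0.30 for Nr1h2 (-0.40 to 1.01), with limma adjusted p of 0.871, 0.874 and 0.794. Over the 6 tested transport and efflux genes the median was 0.24 and 5 were above 0, where 56.8% of all genes tested were below 0. Of the 6, 0 passed the adjusted threshold or an unadjusted p of 0.05. Of all genes tested 0.0261% passed the first, and 5.41% were lower and 2.51% higher at the second. Without WT replicate 2 the median of the 6 was -0.02.

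Neighbouring routes were read from lists of other genes. Of 21 tested genes of sterol processing, SREBP cleavage, sterol trafficking and LXR response that are not among the 30, 0 passed the adjusted limma threshold, 0 had an unadjusted p under 0.05, and the median log2 fold change was -0.18. For all genes tested the shares were 0.0261% for the first, 5.41% lower and 2.51% higher for the second, with a median of -0.07. The smallest p of the 21 belonged to Erlin1, whose product takes part in sterol-dependent degradation at the endoplasmic reticulum, at 12.5 and 12.9 FPKM in Asxl1-/- cells, against 21.5 and 15.9 FPKM in WT. Stard3, a late endosomal sterol carrier, stood at 12.2 and 10.1 FPKM in Asxl1-/- cells, against 8.96 and 5.33 FPKM in WT. Mylip, an LXR target that degrades lipoprotein receptors, stood at 5.00 and 3.11 FPKM in Asxl1-/- cells, against 5.71 and 6.33 FPKM in WT. The groups did not overlap for these 3, which were taken for their small p. Over the whole list of 21, 2 were lower and 2 higher without overlap, where 25.2% and 15.6% of all genes tested were.

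Fatty acid synthesis, the arm driven mainly by SREBP1, had 14 tested genes with 0 calls, 0 at an unadjusted p under 0.05 and a median log2 fold change of -0.19. Of all genes tested 0.0261% were called, and 5.41% were lower and 2.51% higher at that unadjusted p. Acss2, which makes acetyl-CoA from acetate, stood at 5.28 and 4.05 FPKM in Asxl1-/- cells, against 7.24 and 7.22 FPKM in WT, and Acly, which makes it from citrate, at 52.2 and 53.2 FPKM, against 73.3 and 62.8 FPKM. Gpam, the first acyltransferase of triglyceride synthesis, stood at 8.40 and 6.31 FPKM in Asxl1-/- cells, against 5.65 and 4.65 FPKM in WT. These 3 had the smallest p of the list, with limma adjusted p of 0.632 for Acss2 and 0.720 for Acly. Over the 14 genes, 2 were lower and 2 higher without overlap, against the same 25.2% and 15.6%.

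The 14 genes that use isoprenoids, for dolichol, ubiquinone and prenylated proteins, had a median of 0.09, 0 calls and 0 at an unadjusted p under 0.05. The shares of all genes tested were 0.0261% called, and 5.41% lower and 2.51% higher at that unadjusted p. Nus1, a subunit of the enzyme that makes dolichol chains, stood at 30.01 and 38.5 FPKM in Asxl1-/- cells, against 20.9 and 26.1 FPKM in WT. Dolk, the dolichol kinase, stood at 9.12 and 5.88 FPKM in Asxl1-/- cells, against 10.4 and 9.86 FPKM in WT. Pdss1, a subunit that makes the ubiquinone side chain, stood at 1.86 and 1.32 FPKM in Asxl1-/- cells, against 4.77 and 1.81 FPKM in WT, with overlap. These 3 again had the smallest p of their list, in which 1 of 14 genes was lower and 4 were higher without overlap, where 25.2% and 15.6% of all genes tested were.

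Proliferation genes had another spread over the libraries than the enzymes. In limma the adjusted threshold was passed by 0 of the 20 genes of that list (smallest adjusted p = 0.502), and an unadjusted 0.05 by 14, all with a negative fold change, where 5.41% of all genes tested passed it in that direction. The log2 fold change was below 0 for 20 of 20, with a median of -1.10, where 56.8% of all genes tested were below 0. For 19 both Asxl1-/- values were under both WT values, where this held for 25.2%. The 2 most abundant were the replication clamp Pcna, at 85.8 and 53.7 FPKM in Asxl1-/- cells, against 157 and 95.5 FPKM in WT, and the ribonucleotide reductase subunit Rrm2, at 28.9 and 17.1 FPKM, against 34.1 and 74.1 FPKM. The median log2 deviation of the proliferation list from the mean of the 4 libraries was -0.55 and -0.52 in Asxl1-/- replicates 1 and 2, against 0.83 and 0.31 in WT replicates 1 and 2. For the mevalonate steps it was -0.53 and -0.12 in Asxl1-/-, against 0.86 and -0.10 in WT. The lists thus shared the high value of WT replicate 1, while WT replicate 2 was above the mean for proliferation and near it for the mevalonate steps. The part of cell division in the level of the enzymes was not tested.

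**Figure D4:**
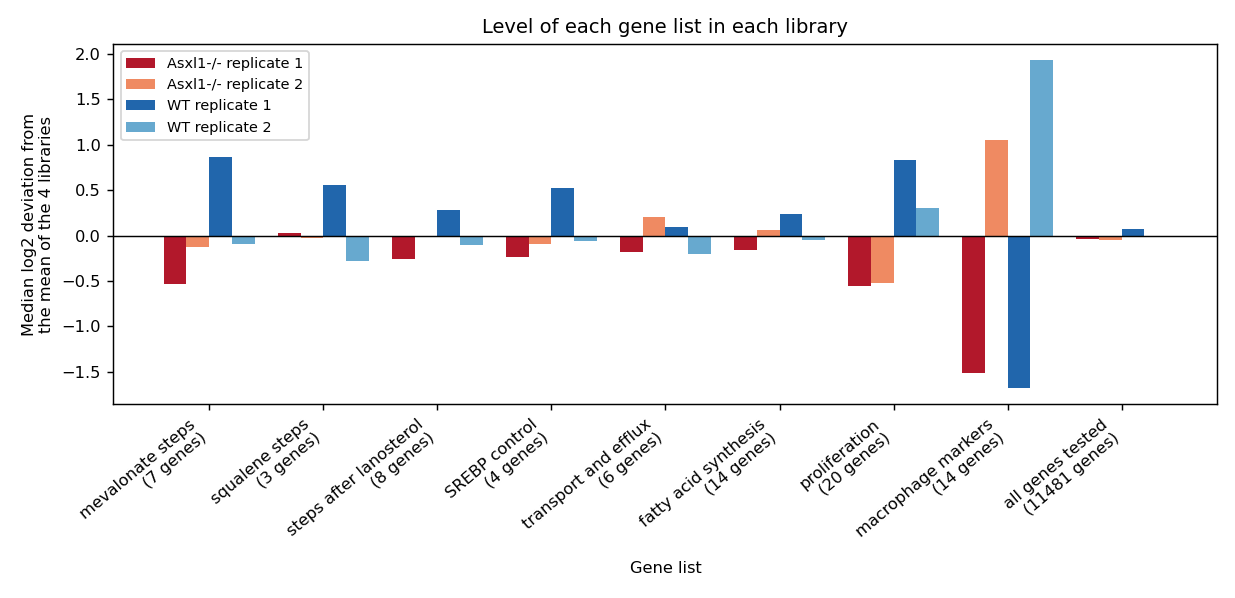
Median log2 deviation of each gene list from the mean of the 4 libraries, by library; bars start at 0 and the number of tested genes is under each list. The mevalonate steps, the squalene steps and SREBP control are high in WT replicate 1 alone, proliferation is high in both WT libraries, and macrophage markers are high in the replicates 2 of both genotypes.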

How the data were processed

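RNA of 4 libraries was analysed, 2 Asxl1-/- and 2 WT, grouped by the genotype label; replicates were numbered in accession order. Per the submitters' processing notes, Cuffdiff, Cufflinks (2.2.1) and TopHat2 (2.0.3) were used with build mm10; the annotation, the kit and the strand setting are not given, so overlapping or antisense genes are uncertain. The authors deposited FPKM per library from Cufflinks, and a Cuffdiff table with FPKM per group, the log2 fold change of Asxl1-/- over WT, p-values and q-values. In each deposited table of single libraries, columns that match no sample were left out, 2 of them in the FPKM table; the deposited log table was not used. Read numbers are unknown, so no counting error is given.

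For a symbol with several rows the one with the highest mean was kept, leaving 23997 of 24487 rows. The 11481 genes whose mean over all 4 libraries reached 1 FPKM entered a limma fit (limma 3.58.1 in R 4.3.3; eBayes with trend) on log2(FPKM + 1), Asxl1-/- minus WT, which understates changes of low genes. Adjustment was by Benjamini and Hochberg over all genes, with a threshold of 0.05. The step was run on simulated data with 200 changed genes. Recovery was required only for large changes at a spread cut below that of the real data. The run therefore does not show that the fit finds changes at the real spread. Median deviations are each gene's log2(FPKM + 1) minus its mean over the 4 libraries. Starts are the file's plus 1, which equals a GENCODE transcript start for 11 members, against 1 without it. Promoters came from RefSeq; Python 3.11.15 with pandas 2.3.3 and matplotlib 3.10.9 served for the rest.

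All 30 members are named, and of 3 lists of neighbouring routes the 3 tested genes with the smallest p; of the macrophage and proliferation lists the 2 most abundant, plus markers chosen after their values were seen (Cd68, Csf1r, Fabp4, Plin4, Adipoq, Cdh5, Col1a1, Col1a2, Pdgfra, Dcn, Ly6a). The members and lists were chosen with earlier results of these data known. Alternatives were pseudocounts of 0.1 and 0.5, the absence of a filter or one at 5 FPKM, quantile normalization or median ratio scaling, robust eBayes or eBayes without a trend, no rows spanning under 300 bp, each library left out, and, added after the data were seen, chromosome medians removed.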

Additional observations from a re-analysis of the deposited data

How the results depend on the processing

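No paired analysis was possible because the labels give the genotypes no shared replicate numbers. Under all alternatives 0 of the 29 tested members passed the adjusted limma threshold. Over all genes 3 were called, 0 higher and 3 lower, against 1 with no filter, and 1 to 8 with 1 library left out. The 3 were the small nucleolar RNA genes Snora15, Snora47 and Snora69, named after their values were seen; without rows under 300 bp, which leaves them out, 0 genes were called. Of 909 genes at an unadjusted p under 0.05, 31.7% were higher, against 47% after median ratio scaling, 42.9% after quantile normalization and 42.5% with chromosome medians removed. With 1 library left out the median log2 fold change ran from -0.77 to 0.084 for the synthesis enzymes, from -0.75 to -0.16 for SREBP control and from -0.016 to 0.33 for transport and efflux, and, for lists added after the data were seen, from -1.12 to -0.31 for the mevalonate steps, from -0.58 to 0.14 for the squalene steps, from -0.32 to 0.052 for the steps after lanosterol and from -1.34 to -0.87 for proliferation. In these fits the enzymes lower without overlap numbered 5 to 15, since fewer libraries are compared. In the same fits the sign changed for 16 genes: Hmgcs1 (-0.92 to 0.25), Idi1 (-1.12 to 0.10), Fdft1 (-0.41 to 0.14), Sqle (-0.58 to 0.59), Lss (-0.74 to 0.18), Cyp51 (-0.26 to 0.37), Tm7sf2 (-0.43 to 0.019), Hsd17b7 (-0.18 to 0.41), Dhcr7 (-1.0 to 0.29), Srebf2 (-1.13 to 0.13), Scap (-0.69 to 0.57), Insig1 (-1.15 to 1.16), Stard4 (-0.91 to 0.014), Npc2 (-0.30 to 0.52), Nr1h3 (-0.18 to 1.10) and Abca1 (-0.36 to 1.47). Sqle was -0.0037 after quantile normalization, and Scap 0.045 after median ratio scaling and 0.0041 with chromosome medians removed. The cause was not tested. Of 544 values of single genes under the alternatives, 513 kept sign and side of the threshold and 31 changed sign. This tally is not a measure of stability. The filters, the eBayes variants and the removal of short rows leave the log2 fold change itself as it was, so its sign could not change. No followed gene passed the threshold in the main fit either, and the sign of 16 of the 39 changed with 1 library left out.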
